A study of Mus musculus with 12 samples.

Results

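The 10 genes described here carry the nucleoside drug gemcitabine into a cell, activate it, break it down or are its targets: Slc29a1, Slc29a2, Dck, Cmpk1, Cda, Dctd, Nt5c, Rrm1, Rrm2 and Samhd1. They were taken as a named list, matched by symbol to the Ensembl identifiers of 2 deposited count tables, and all 10 were found in both tables, out of 17335 genes in either. Their transcripts were measured by RNA sequencing in 2 mouse cell lines of a supernatant transfer model, with 3 libraries in each of 4 groups. PSC4 cells are pancreatic stellate cells, the fibroblast precursors of that organ, and KPC4 cells come from a pancreatic tumour. In the Control-SU group PSC4 cells were kept for 24 h in the medium of vehicle-treated KPC4 cells, and in the Gem-SU group in the medium of KPC4 cells that had received 10 µM gemcitabine for 6 h, had been washed, and had then conditioned starvation medium for 14 h. For the other pair of groups, PSC4 cells spent 6 h in Control-SU or Gem-SU, were washed, and conditioned fresh medium for 18 h. KPC4 cells were then kept for 24 h in that medium, which gave the Control-PSC-SU and Gem-PSC-SU groups. No RNA library was made from cells given gemcitabine directly. Drug that was left in a transferred medium and factors released by the donor cells therefore cannot be told apart in any comparison below. The labels call the libraries of a group biological replicates without saying how the cultures were kept apart, so every p-value measures the spread between these libraries.

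Gemcitabine is an analogue of deoxycytidine and shares its enzymes. Equilibrative nucleoside transporters let it into the cell, deoxycytidine kinase adds the first phosphate in the step that limits activation, and further kinases make the diphosphate, which blocks ribonucleotide reductase, and the triphosphate, which is built into DNA and stops the polymerase. Deaminases and nucleotidases undo these steps, and in pancreatic cancer the levels of the transporter, the kinase, cytidine deaminase and the reductase subunits have long been studied as markers of how cells respond to the drug.

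Libraries held 29559414 to 38138356 counts in PSC4 and 26354328 to 34744150 counts in KPC4, and each of the 10 genes passed the filter on low counts in every comparison. Levels are given as CPM, counts scaled to a common library total, with totals adjusted by TMM (a scaling that makes most genes equal between libraries) within each line. Of 11 stellate and fibroblast markers 10 were in the PSC4 table. They summed to 6100 to 7392 CPM in Control-SU and 1932 to 2961 CPM in Gem-SU, so the sum was lower in every Gem-SU library. Mean levels of Col1a1, Col1a2, Col3a1, Pdgfra, Pdgfrb, Thy1, Fap and Dcn were lower with Gem-SU. Libraries of Fap overlapped at a low level, with 0.474 to 1.86 CPM in Control-SU and 0.779 to 0.857 CPM in Gem-SU. Mean levels of Acta2 (15.7 against 26.9 CPM) and Des (2.84 against 3.36 CPM) were higher, with overlapping libraries. In KPC4 the same list summed to at most 33.0 CPM, while 9 of 9 ductal markers were in the table and summed to between 6064 and 7512 CPM. Krt8, Krt19 and Krt18 had the highest means in Control-PSC-SU (2835, 1816 and 1391 CPM), while Epcam and Cldn4 were at only 8.89 and 1.27 CPM. The ductal list reached 30.7 CPM in PSC4 Control-SU and 58.7 CPM in PSC4 Gem-SU, mostly as Sox9, with Cdh1 and Epcam absent from the PSC4 table. Leukocyte markers summed to at most 6.03 CPM in any library. Whether the lower stellate marker sum had a part in any result below was not tested.

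In stellate cells the strongest change of the 10 genes was in Rrm2, the small subunit of ribonucleotide reductase, which is made anew in each S phase. It rose 7.85-fold with Gem-SU. Rrm1, the large subunit of the same enzyme, rose 1.97-fold, the activating kinase Dck rose 2.31-fold and the deoxycytidylate deaminase Dctd rose 1.62-fold, while the drug-inactivating cytidine deaminase Cda fell 2.07-fold. The other 5 genes did not pass the test. The comparison asked how PSC4 transcripts differ between the medium of gemcitabine-treated and of vehicle-treated tumour cells. It called 5 of the 10 genes at an adjusted p under 0.05, 4 higher and 1 lower, beside 46.3% of all 13347 genes tested (24.3% higher and 22.0% lower), so the count is close to the background and is no result about these genes as a group. DESeq2 called 6 beside 43.7%, edgeR with the replicate number as a block 6 beside 54.4%, and 1 fit over all 12 libraries 7 beside 40.1%.

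Rrm2 (ENSMUSG00000020649) stood at 65.8, 42.6 and 57.3 CPM in Control-SU replicates 1, 2 and 3 and at 462, 435 and 404 CPM in Gem-SU replicates 1, 2 and 3. Every Gem-SU library lay far above every Control-SU library. The log2 fold change was 2.97 (SE 0.20, adjusted p = 4.04e-05 from the quasi-likelihood test of edgeR, adjusted by Benjamini-Hochberg over all genes), and it kept its call in each of the 14 alternatives run. Rrm1 (ENSMUSG00000030978) was at 288, 309 and 293 CPM with Control-SU and at 577, 562 and 613 CPM with Gem-SU. Its replicates lay close together in both groups, and the groups did not overlap (log2 fold change 0.98, SE 0.14, adjusted p = 9.83e-04, same test). In bulk RNA a larger share of cells that carry a transcript and more of it in each cell cannot be told apart.

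Dck (ENSMUSG00000029366) measured 51.1, 43.4 and 43.4 CPM with Control-SU and 106, 109 and 104 CPM with Gem-SU. The Gem-SU libraries sat within a few CPM of one another, all above the controls (log2 fold change 1.21, SE 0.13, adjusted p = 2.90e-04, edgeR). Promoters of the genes with the strongest changes are shown here because 3 of them moved together and the fourth moved the other way. Each line gives the 250 bases before the RefSeq start on the gene's own strand in GRCm38.p6, with CCAAT boxes (CCAAT) and GC boxes (GGGCGG, read as CCGCCC on the other strand) in capitals.
Rrm2, chr12:24708004-24708253, plus strand: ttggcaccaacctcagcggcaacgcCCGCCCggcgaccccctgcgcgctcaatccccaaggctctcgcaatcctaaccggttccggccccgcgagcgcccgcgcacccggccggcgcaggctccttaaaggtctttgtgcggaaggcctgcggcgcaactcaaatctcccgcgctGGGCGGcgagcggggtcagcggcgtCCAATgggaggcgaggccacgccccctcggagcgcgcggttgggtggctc
Rrm1, chr7:102441445-102441694, plus strand: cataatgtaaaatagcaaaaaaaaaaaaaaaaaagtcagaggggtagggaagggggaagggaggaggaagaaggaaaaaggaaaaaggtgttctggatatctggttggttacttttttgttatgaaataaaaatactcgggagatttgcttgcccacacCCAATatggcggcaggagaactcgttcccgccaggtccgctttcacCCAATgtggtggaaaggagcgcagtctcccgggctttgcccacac
Dck, chr5:88764763-88765012, plus strand: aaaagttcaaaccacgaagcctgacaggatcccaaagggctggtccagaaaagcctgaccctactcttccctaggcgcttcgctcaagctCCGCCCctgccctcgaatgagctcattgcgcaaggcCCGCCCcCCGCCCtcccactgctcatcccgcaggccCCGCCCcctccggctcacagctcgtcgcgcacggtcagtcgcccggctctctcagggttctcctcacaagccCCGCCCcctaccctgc
Cda, chr4:138367956-138368205, minus strand: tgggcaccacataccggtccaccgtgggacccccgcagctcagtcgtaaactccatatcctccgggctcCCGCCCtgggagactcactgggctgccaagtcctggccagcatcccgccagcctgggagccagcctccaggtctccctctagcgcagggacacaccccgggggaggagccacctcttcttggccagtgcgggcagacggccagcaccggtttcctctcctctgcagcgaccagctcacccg
The CCAAT box, counted on both strands, occurred 2 times in the Rrm1 window, 91 and 45 bases before the start, and 1 time in the Rrm2 window, 50 bases before it. It occurred in neither the Dck nor the Cda window, and 33.8% of 32851 promoter windows of the same length held it. The GC box occurred 5 times in the Dck window, 2 times in that of Rrm2, 1 time in that of Cda and not in that of Rrm1, against 32.7% of windows with at least 1. An E2F-type site, searched as TTTGGCGC or TTTCGCGC on both strands, was in none of the windows of the 10 genes and in 0.654% of all windows. With letters this rare their absence here says nothing about these genes, and other forms of the site were not searched. The letters TTTGAA, a cell cycle element (CHR), occurred 1 time in the Dck window, 245 bases before the start and not capitalised, in no other window shown, and in 16% of all windows. No match of one motif overlapped a match of another, and a match is only a description of these letters. All 10 genes had an entry in the promoter table, 8 of them with a single start.

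**Figure D1:**
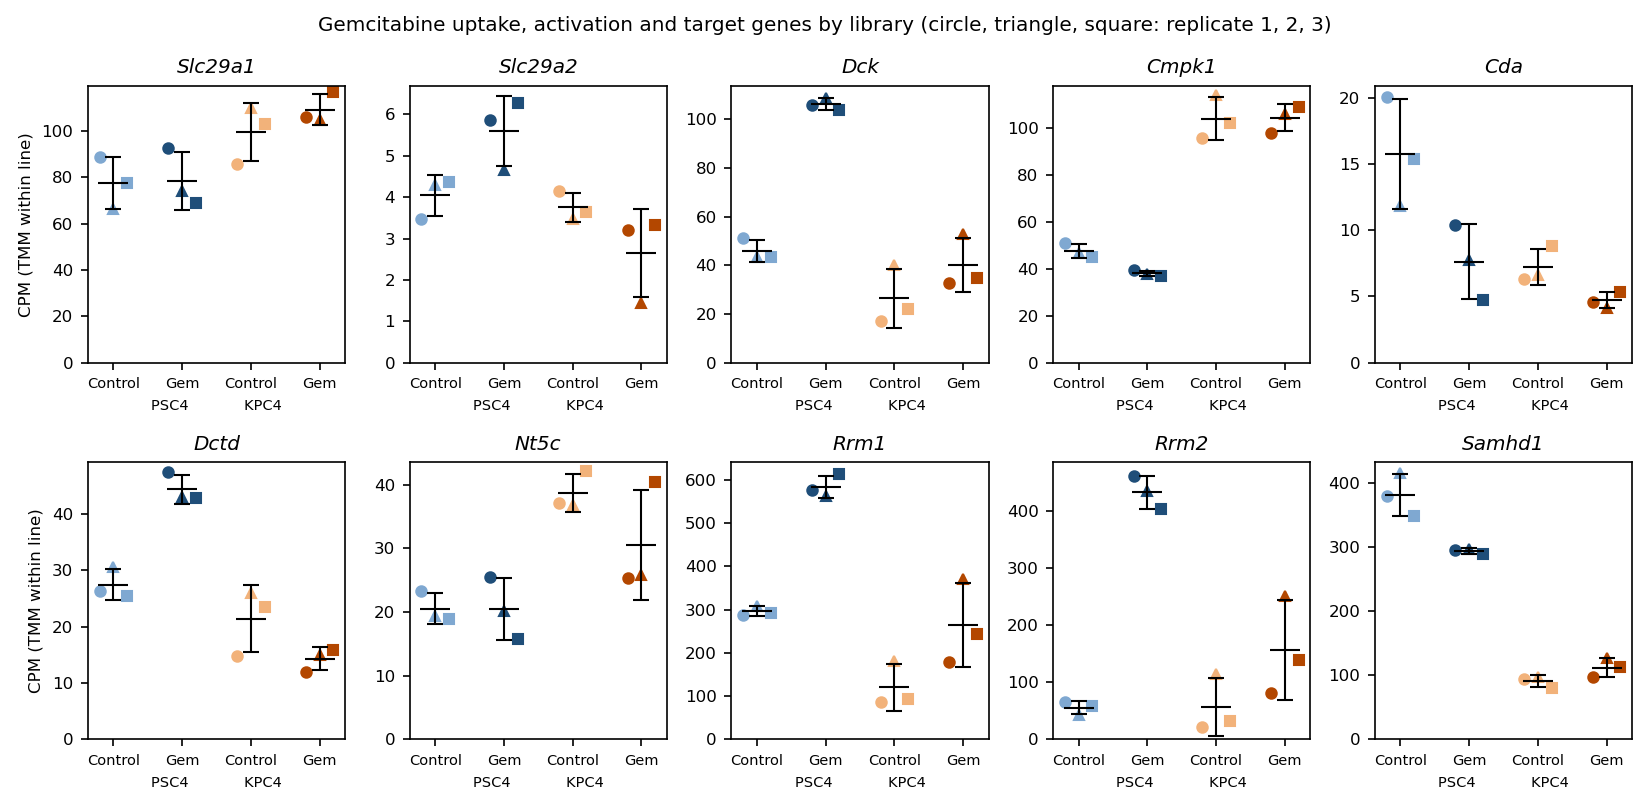
Level of each of the 10 genes in every library, in CPM scaled within each line, with 1 panel per gene and an axis that starts at 0. Circles, triangles and squares are replicates 1, 2 and 3, and the black marks are the mean and SD of 3 libraries. Rrm2, Rrm1, Dck and Dctd are higher in all PSC4 Gem libraries than in all PSC4 Control libraries, and in KPC4 replicate 2 (triangle) is the highest library of both groups for Rrm2, Rrm1 and Dck.

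Among the enzymes that remove amino groups or phosphates, Cda (ENSMUSG00000028755), which turns gemcitabine into an inactive uridine, was at 20.1, 11.8 and 15.4 CPM with Control-SU and at 10.4, 7.78 and 4.71 CPM with Gem-SU. The groups did not overlap, though the lowest control and the highest Gem-SU library lay closer together than the libraries within either group were spread. The log2 fold change was -1.05 (SE 0.32, adjusted p = 0.0263, edgeR), and the call was lost in 4 of 6 fits that left out 1 library. Without Control-SU replicate 1 it was -0.83 (adjusted p = 0.0866), without Control-SU replicate 3 it was -1.11 (0.0543), without Gem-SU replicate 2 it was -1.06 (0.079), and without Gem-SU replicate 3 it was -0.79 (0.0615), all in edgeR. Dctd (ENSMUSG00000031562), which deaminates deoxycytidine monophosphate and can do so to the drug's monophosphate, moved the other way. It measured 26.3, 30.6 and 25.4 CPM with Control-SU and 47.4, 43.1 and 42.8 CPM with Gem-SU, without overlap (log2 fold change 0.69, SE 0.15, adjusted p = 0.00557, edgeR). Nt5c (ENSMUSG00000020736), a cytosolic nucleotidase that strips phosphate from deoxynucleoside monophosphates, was at 23.3, 19.3 and 18.9 CPM against 25.5, 20.2 and 15.8 CPM. These groups overlapped fully, and the approximate 95% interval of the log2 fold change ran from -0.42 to 0.42.

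The kinase of the next step and the entry routes moved little. Cmpk1 (ENSMUSG00000028719), which adds the phosphate after that of Dck, was at 51.0, 46.9 and 44.8 CPM with Control-SU and at 39.3, 37.7 and 37.1 CPM with Gem-SU. All Gem-SU libraries lay below all controls, yet the log2 difference of -0.32 (SE 0.14) did not pass the test (adjusted p = 0.0811, edgeR), and it passed at 0.0495 only in 1 fit over all 12 libraries. Slc29a1 (ENSMUSG00000023942), the main equilibrative transporter of gemcitabine, measured 88.7, 66.3 and 77.5 CPM with Control-SU and 92.7, 74.3 and 68.9 CPM with Gem-SU. The groups overlapped, and the log2 difference of 0.02 had an interval from -0.31 to 0.35 (adjusted p = 0.929, edgeR). Slc29a2 (ENSMUSG00000024891), a related carrier, was far less abundant, with 3.48, 4.29 and 4.36 CPM against 5.87, 4.66 and 6.27 CPM. Its Gem-SU libraries were all higher without passing the test (log2 difference 0.47, SE 0.24, adjusted p = 0.146, edgeR).

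Samhd1 (ENSMUSG00000027639), a triphosphohydrolase that degrades deoxynucleotides and can cleave related drug triphosphates, measured 380, 415 and 348 CPM with Control-SU and 295, 297 and 289 CPM with Gem-SU. Every Gem-SU library was below every control. The log2 difference was -0.37 (SE 0.14, adjusted p = 0.0622, edgeR), and it passed in DESeq2 (0.0255), in edgeR with the block (0.044) and in 1 fit over all 12 libraries (0.0419). Libraries of the 2 groups did not overlap for 8 of the 10 genes, 5 higher and 3 lower, beside 56.4% of all genes tested (29.3% higher and 27.1% lower).

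**Figure D2:**
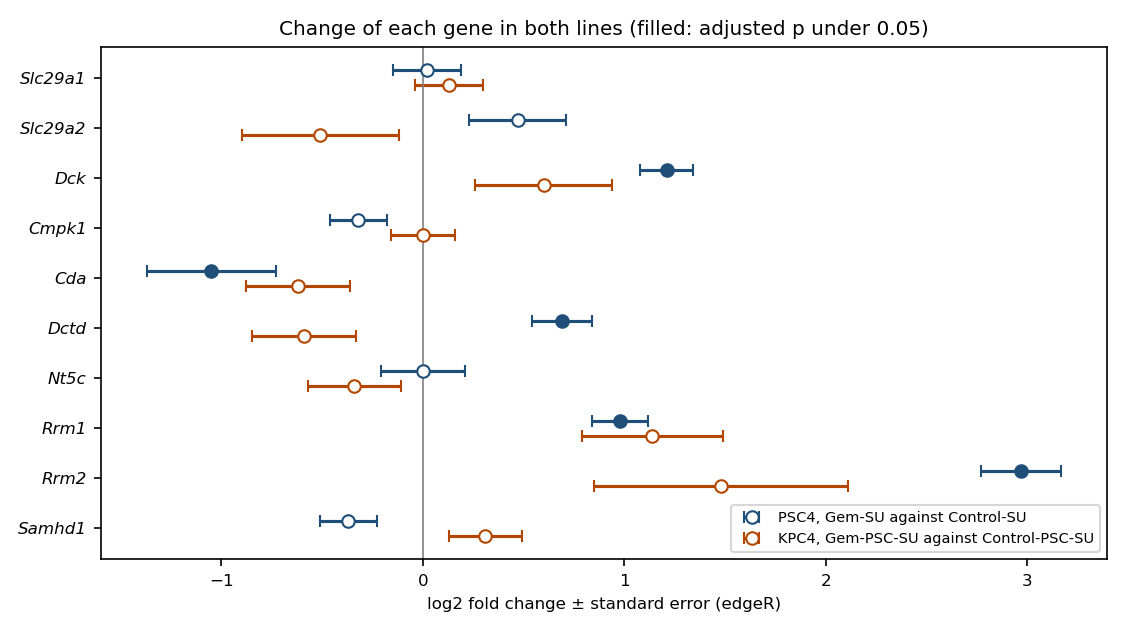
Log2 fold change of each of the 10 genes with its standard error from edgeR, Gem-SU against Control-SU in PSC4 (blue) and Gem-PSC-SU against Control-PSC-SU in KPC4 (orange). Filled points have an adjusted p under 0.05. Rrm2 in PSC4 lies farthest from 0 at 2.97, no KPC4 point is filled, and the points of Dctd lie on opposite sides of 0 at 0.69 and -0.59.

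Within a library the balance of these genes was compared per kilobase of merged exons, since levels of different genes can be compared only per length. The ratio of Dck to Cda was 0.695, 1.01 and 0.773 in the Control-SU libraries and 2.81, 3.82 and 6.03 in the Gem-SU libraries of PSC4. Its mean was 0.825 ± 0.162 (SD, n = 3) against 4.22 ± 1.65 (SD, n = 3), with no overlap. The ratio of Rrm1 to Rrm2 went from 1.10, 1.82 and 1.29 to 0.314, 0.325 and 0.382, so the large subunit was the more abundant transcript per kilobase in every control library and the small subunit in every Gem-SU library. These ratios were formed after their values were known and carry no test.

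By level per kilobase, the order in PSC4 Control-SU began with Samhd1 at 41.6 ± 3.65 CPM per kilobase (SD, n = 3), Rrm1 at 26.9 ± 0.991 and Rrm2 at 19.9 ± 4.22. Rrm2, Slc29a1, Nt5c, Cda, Cmpk1 and Dck followed in that order, and each overlapped the next in its libraries. Dctd at 8.05 ± 0.817 and Slc29a2 at 1.34 ± 0.162 came last, neither overlapping the gene above it. In PSC4 Gem-SU the order began with Rrm2 at 157 ± 10.5 CPM per kilobase, Rrm1 at 53.0 ± 2.36, Samhd1 at 32.1 ± 0.480 and Dck at 28.1 ± 0.647, none overlapping the next. Cda had moved to the next to last place at 7.36 ± 2.74. Dividing by the longest transcript instead kept Samhd1 and Rrm2 on top of these orders and Slc29a2 at the bottom, and swapped Rrm2 with Slc29a1 in Control-SU and Dck with Slc29a1 in Gem-SU.

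Other genes of the pathway in PSC4 came from 8 lists. Of 12 nucleoside and nucleotide kinases 5 rose and 1 fell (median log2 difference 0.47, against -0.00 over all genes tested). The counts of this and the following PSC4 lists stand beside 24.3% of all genes called higher and 22.0% called lower, and a share near these is no result about a list. The uridine-cytidine kinase Uck1 rose by 0.69 on the log2 scale (SE 0.15, adjusted p = 0.00536, edgeR) and the thymidylate kinase Dtymk by 0.83 (0.00931). The mitochondrial deoxyguanosine kinase Dguok, which can also phosphorylate deoxycytidine analogues, had a log2 difference of -1.21 (0.00273). Tk1, the S phase thymidine kinase, was at 74.0 ± 29.2 CPM against 112 ± 29.7 CPM (SD, n = 3) and did not pass (log2 difference 0.60, adjusted p = 0.145, edgeR). Of 8 genes for deoxynucleotide synthesis and clean-up 5 rose and 1 fell (median 0.84). Thymidylate synthase Tyms rose by 1.48 and Rrm2b, the small reductase subunit that works outside S phase, by 1.06 (SE 0.18, adjusted p = 0.00169, edgeR), whereas the CTP synthase Ctps2 had a log2 difference of -1.42. Rrm2b went from 29.4 ± 2.87 to 61.3 ± 11.1 CPM (SD, n = 3), a smaller step than that of Rrm2, and the per kilobase ratio of Rrm2 to Rrm2b went from 8.22, 4.38 and 6.32 to 30.1, 23.6 and 18.3.

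Of 9 tested nucleotidases and enzymes of base breakdown 2 of those called were higher and 3 lower (median -0.18). Uridine phosphorylase Upp1 rose from 0.508 ± 0.126 to 5.61 ± 1.21 CPM (SD, n = 3; log2 difference 3.46, adjusted p = 1.79e-04, edgeR), and Nt5c2 was called at 0.44, a call lost in 5 of 6 fits that left out 1 library, at adjusted p between 0.0503 and 0.12. The surface nucleotidase Nt5e fell from 7.26 ± 1.57 to 1.39 ± 0.176 CPM (log2 difference -2.38, adjusted p = 3.76e-04, edgeR). Of 6 drug efflux pumps 3 rose (median 1.00), among them both mouse genes for P-glycoprotein, Abcb1b from 77.3 ± 17.2 to 424 ± 65.6 CPM and Abcb1a from 4.54 ± 1.35 to 20.6 ± 7.17 CPM (SD, n = 3), and Abcg2 with a log2 difference of 1.39. Among 5 other nucleoside transporters only Slc29a3 and Slc29a4 were abundant enough to test. Slc29a4, a monoamine and nucleoside carrier, had 0 to 4 counts in the control libraries and 56 to 117 counts with Gem-SU (adjusted p = 7.09e-04, edgeR), too few in the controls for a fold change. The concentrative transporter Slc28a3 had 4 to 7 counts with Control-SU and 7 to 21 counts with Gem-SU and was below the filter.

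The lists closest to Rrm1 and Rrm2 were those of dividing cells. In PSC4 6 of 12 S phase genes rose and none fell (median 0.47), 5 of 9 replicative polymerase subunits rose and 1 fell (median 0.49), and 4 of 8 mitosis genes rose and none fell (median 0.60), beside 46.3% of all genes called (24.3% higher and 22.0% lower). Cdc6, a licensing factor of replication origins, rose by 2.20 on the log2 scale (SE 0.15, adjusted p = 4.74e-05, edgeR), Cdc45 by 1.84 and the helicase subunit Mcm3 by 1.04, a call lost in 1 fit over all 12 libraries (0.99, 0.0736). The primase subunit Prim1 rose by 1.05, the polymerase gene Pole by 1.14, and the mitotic kinases Aurka and Bub1 by 1.22 and 1.25. The 12 S phase genes summed to between 2404 and 2755 CPM in Control-SU and between 3339 and 3788 CPM in Gem-SU, without overlap. That sum differed far less than Rrm2 did, and its part in the levels of Rrm1, Rrm2 and Dck was not tested.

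**Figure D3:**
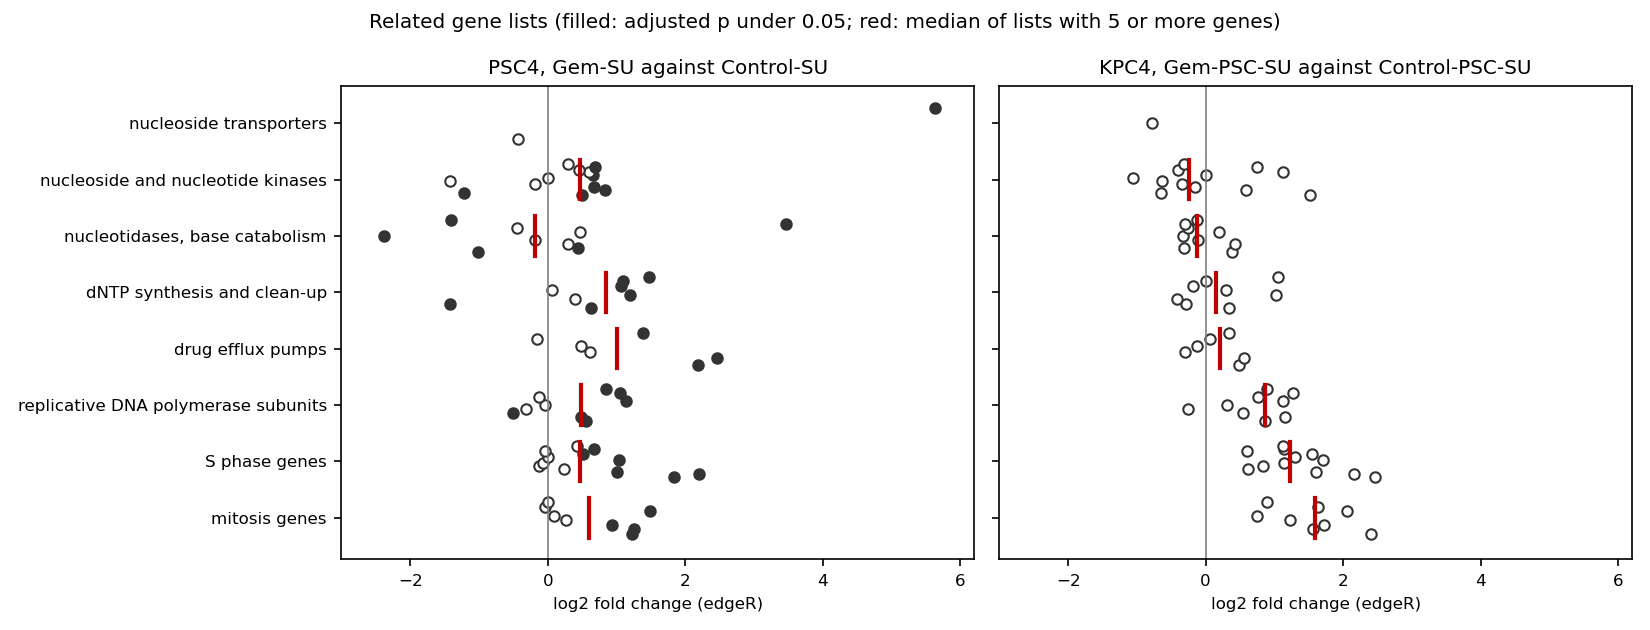
Log2 fold change of each tested gene of the 8 lists in PSC4 (left) and KPC4 (right), from edgeR, with filled points for an adjusted p under 0.05 and a red bar at the median of lists with 5 or more tested genes. The PSC4 point above 5 is Slc29a4, whose controls have 0 to 4 counts, so its position depends on the fit. In KPC4 no point is filled, and the medians of S phase and mitosis genes stand at 1.22 and 1.59.

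In tumour cells kept in the medium of the stellate cells, Rrm2, Rrm1 and Dck were again the highest of the 10 genes by log2 difference, but none of the 10 passed the test. This comparison asked how KPC4 transcripts differ between medium from Gem-SU-exposed and from Control-SU-exposed stellate cells. The adjusted p was under 0.05 for 0 of 10 genes and for 0 of all 13236 genes tested (0%), at an unadjusted p under 0.05 for 3 of 10 against 17.0% of all genes, and in DESeq2 for 1 of 10 (Rrm1) against 5.95%. In 1 fit over all 12 libraries it was again 1 of 10, Rrm1, against 4.47%. Same-numbered KPC4 libraries deviated together, but the labels do not say that a number marks a pair. With the number as a block in edgeR 3 of 10 genes rose (Rrm1, Rrm2 and Dck). Over all genes 8.85% were called, 803 of 13236 higher and 368 lower. The block was chosen from these same values, so its adjusted p-values here and below are no independent evidence of a change. Replicate 2 stood apart in both groups, and without both libraries of that number, an alternative added after seeing the data, edgeR called Rrm1 and Rrm2, 2 of 10 beside 1.85%.

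Rrm2 in KPC4 was at 21.6, 115 and 32.0 CPM with Control-PSC-SU and at 80.2, 252 and 138 CPM with Gem-PSC-SU. Replicate 2 was the highest library of both groups, and its control lay above Gem-PSC-SU replicate 1, so the groups overlapped. The log2 difference was 1.48 (SE 0.63, adjusted p = 0.280, edgeR). Between libraries of the same number it was 1.89, 1.13 and 2.11, higher in 3 of 3 pairs, and the block fit gave 1.71 (adjusted p = 0.00366, edgeR with the block). Without both replicate 2 libraries it was 2.06 (adjusted p = 0.0217, edgeR). Leaving out 1 library moved it from 0.95 without Gem-PSC-SU replicate 2 (adjusted p = 0.71) to 2.56 without Control-PSC-SU replicate 2 (0.0503), neither passing in edgeR.

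Rrm1 showed the same arrangement, with 85.6, 181 and 91.8 CPM with Control-PSC-SU and 178, 370 and 244 CPM with Gem-PSC-SU. Only control replicate 2 reached into the Gem-PSC-SU range. The log2 difference was 1.14 (SE 0.35, adjusted p = 0.175, edgeR), 1.17 with the block (adjusted p = 0.00329), and 1.28 without both replicate 2 libraries (0.0276), and same-number pairs differed by 1.06, 1.03 and 1.41. Dck was at 17.2, 40.1 and 22.1 CPM against 32.7, 52.7 and 34.9 CPM. Again replicate 2 was the highest in each group, and the groups overlapped through it. The log2 difference of 0.60 (SE 0.34, adjusted p = 0.391, edgeR) became 0.66 with the block (adjusted p = 0.0485), and all 3 same-number pairs were higher, by 0.93, 0.39 and 0.66.

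Cda and Slc29a2 were the only genes of the 10 whose KPC4 groups did not overlap, both lower with Gem-PSC-SU, beside 22.8% of all genes without overlap, 10.9% lower. Cda measured 6.31, 6.61 and 8.81 CPM against 4.59, 4.15 and 5.35 CPM, a log2 difference of -0.62 (SE 0.26, adjusted p = 0.277, edgeR; 0.110 with the block). Its level was lower in 3 of 3 same-number pairs without passing either test. Slc29a2 was at 4.15, 3.47 and 3.65 CPM against 3.21, 1.43 and 3.32 CPM (log2 difference -0.51, SE 0.39, adjusted p = 0.525, edgeR). Gem-PSC-SU replicate 2 was the lowest library of the 6.

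The remaining genes of KPC4 overlapped between the groups. Dctd was at 14.8, 26 and 23.5 CPM against 12, 15 and 15.9 CPM, lower in each same-number pair (log2 difference -0.59, SE 0.26, adjusted p = 0.298, edgeR). Nt5c was at 37.1, 36.9 and 42.2 CPM against 25.3, 25.9 and 40.5 CPM, with replicate 3 alike in both groups (log2 difference -0.34, interval -0.79 to 0.11). Samhd1 was at 94.0, 97.4 and 79.4 CPM against 96.5, 126 and 112 CPM (log2 difference 0.31, interval -0.05 to 0.66). Slc29a1 at 85.7, 110 and 103 CPM against 106, 105 and 117 CPM and Cmpk1 at 95.8, 114 and 102 CPM against 97.8, 106 and 109 CPM stood closest to no difference. Their log2 intervals ran from -0.20 to 0.47 and from -0.32 to 0.32.

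The S phase genes moved with Rrm1, Rrm2 and Dck across the KPC4 libraries. Their sum was 515, 1325 and 667 CPM with Control-PSC-SU and 1200, 2901 and 1941 CPM with Gem-PSC-SU, with replicate 2 again the highest of each group. All 12 S phase genes and all 8 mitosis genes had a positive log2 difference, with medians of 1.22 and 1.59 against -0.02 over all genes. None was called in the edgeR fit that gave these values, which had no block. With the block 11 of 12 S phase genes, 6 of 8 mitosis genes and 5 of 9 polymerase subunits rose in edgeR. Beside them 803 of all 13236 genes were called higher (8.85% called in either direction). DESeq2 called all 4 of the genes named next, which edgeR without the block did not: Cdt1, a licensing factor, was at 1.61 (adjusted p = 0.112, edgeR), Cdc45 at 2.46 (0.124), the proliferation marker Mki67 at 2.05 (0.124) and Aurka at 2.41 (0.124). Tyms was at 1.05 (0.246; 0.0112 with the block) and Tk1 at 1.13 (0.192; 0.0242 with the block and 0.0405 in DESeq2), the groups of Tk1 not overlapping, while Rrm2b, outside S phase, was at -0.18 (0.657). The part of these genes in the levels of Rrm1, Rrm2 and Dck was not tested.

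**Figure D4:**
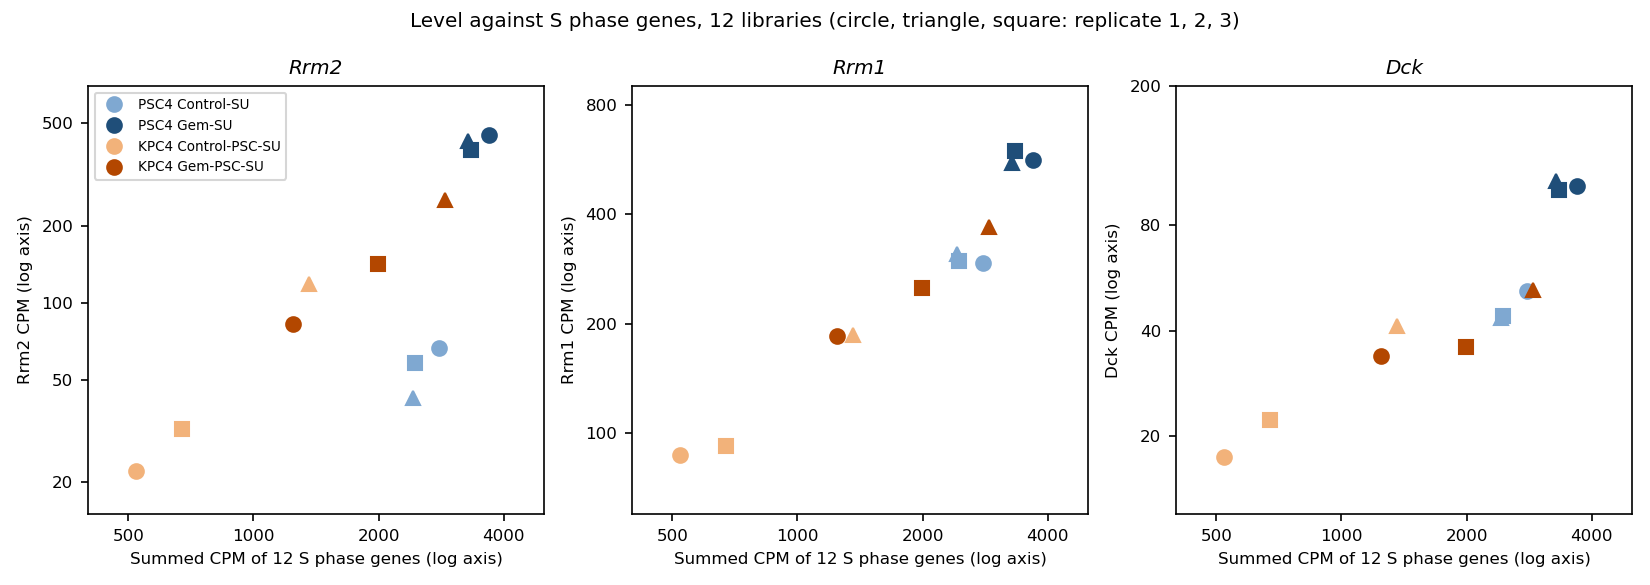
CPM of Rrm2, Rrm1 and Dck against the summed CPM of 12 S phase genes in each of the 12 libraries, both on log axes and scaled by TMM over both lines. Colours are the 4 groups, and circles, triangles and squares are replicates 1, 2 and 3. The KPC4 libraries run from a sum of 523 to one of 2888 with Rrm2, Rrm1 and Dck lowest at the low end and highest at the high end, and the PSC4 Control-SU libraries have sums of 2418 to 2795 with Rrm2 at 42.7 to 66.7 CPM, below the 83.0 CPM of a KPC4 library whose sum is 1242.

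The ratio of Dck to Cda per kilobase in KPC4 was 0.746, 1.66 and 0.688 with Control-PSC-SU and 1.95, 3.47 and 1.79 with Gem-PSC-SU. All Gem-PSC-SU libraries lay above all controls, though the lowest of them, 1.79, was close to the highest control, 1.66. The ratio of Rrm1 to Rrm2 was 0.995, 0.395 and 0.722 against 0.56, 0.369 and 0.444. That of Rrm2 to Rrm2b was 1.98, 12.5 and 3.6 against 8.05, 31.8 and 18.1. Both of these overlapped between the KPC4 groups, unlike in PSC4. The KPC4 ratios too were formed after their values were known and carry no test. The per kilobase order of KPC4 Control-PSC-SU began with Nt5c at 34.0 ± 2.60 CPM per kilobase (SD, n = 3), Cmpk1 at 30.4 ± 2.75 and Slc29a1 at 24.8 ± 3.07, with Nt5c and Cmpk1 overlapping. This order depended on the length used, since per kilobase of the longest transcript Slc29a1 came first at 44.8 and Nt5c next at 42.7. Rrm2, at 20.3 ± 18.6, overlapped its neighbours Slc29a1 and Rrm1, and from Rrm2 down to Cda each gene overlapped the one below it. With Gem-PSC-SU Rrm2 came first at 56.7 ± 31.6, which overlapped Cmpk1 in the place below it. With the longest transcript Rrm2 stayed first there and Cmpk1 took rank 5. Slc29a2 was last in both groups, at 1.24 ± 0.117 and 0.878 ± 0.351.

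A direct test of whether the lines differed in their response, as the interaction in 1 fit of all 12 libraries, called 2 of the 10 genes beside 9.85% of 13632 genes tested. Dctd, higher with Gem-SU in PSC4 and lower with Gem-PSC-SU in KPC4, had a difference of response of 1.23 (SE 0.30, adjusted p = 0.0231, edgeR), PSC4 minus KPC4 on the log2 scale. Samhd1, lower in PSC4 and higher in KPC4, had -0.73 (SE 0.22, adjusted p = 0.0495, edgeR). In KPC4 neither change passed the test by itself, and in the fits of PSC4 alone Dctd passed while Samhd1 passed only under the alternatives given above. The Dctd call was lost in 5 of 12 fits that left out 1 library: without PSC4 Control-SU replicate 1 (1.20, adjusted p = 0.0508), without PSC4 Control-SU replicate 3 (1.20, 0.0585), without PSC4 Gem-SU replicate 2 (1.23, 0.0594), without KPC4 Control-PSC-SU replicate 2 (1.06, 0.0507) and without KPC4 Control-PSC-SU replicate 3 (1.17, 0.0608). The Samhd1 call was lost in 10 of these 12, at adjusted p from 0.0563 to 0.133 and differences from -0.79 to -0.63, and was kept only without PSC4 Gem-SU replicate 1 and without KPC4 Gem-PSC-SU replicate 1. It was also lost with plain library totals (-0.63, adjusted p = 0.0678, edgeR), under which 59.8% of all calls in this comparison were higher in place of 48.3%.

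The other 8 genes did not pass the test of the difference. Rrm2, with 2.97 in PSC4 and 1.48 in KPC4, differed by 1.46 (SE 0.73, adjusted p = 0.227, edgeR). With the block it differed by 1.24 (adjusted p = 0.0101, edgeR), which made 3 of 10 called beside 21.9%. That block also pairs the PSC4 libraries, whose same-number deviations gave r of 0.428, -0.0548 and 0.102. Leaving out 1 library moved the Rrm2 difference from 0.38 without KPC4 Control-PSC-SU replicate 2 to 1.96 without KPC4 Gem-PSC-SU replicate 2, neither passing in edgeR. DESeq2 called 2 of 10 beside 15.6%, and leaving out both KPC4 libraries numbered 2 gave 1 of 10 beside 12.1%. Rrm1 differed by -0.21, with an interval from -1.0 to 0.58, and Dck by 0.57, from -0.18 to 1.32. For Cda the difference was -0.48, from -1.32 to 0.36. Slc29a2, positive in PSC4 and negative in KPC4, differed by 0.92 (adjusted p = 0.244, edgeR). Among relatives of these genes Rrm2b differed by 1.19 (adjusted p = 0.0146, edgeR), Upp1 by 3.71 (7.12e-04), Nt5e by -2.11 (0.00944), Abcb1a by 1.65 (0.0151), Ctps2 by -1.20 (0.0133) and the one-carbon enzyme Shmt1 by 1.04 (0.0100). Without the block no S phase gene passed, while 1 of 9 polymerase subunits and 1 of 8 mitosis genes did. In both the response, not the level, was lower in PSC4 than in KPC4. Over all 13632 genes 695 were called lower. With the block 9 of 12 S phase genes passed, all with a lower response in PSC4 than in KPC4, beside 1631 of all genes called lower.

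Levels in the control groups of the 2 lines, which differ in cell type, in medium received and in table, called 6 of the 10 genes beside 42.9% of 13632 genes, and libraries of the lines did not overlap for 6 of 10 beside 57.2%. DESeq2 called 6 beside 47.2%, edgeR with the block 7 beside 52.1%, and without both KPC4 libraries numbered 2 it called 7 beside 43.3%, so these shares lie near the background. Values here are on totals scaled over both lines. Samhd1 stood out at 385 ± 31.0 CPM in PSC4 against 91.8 ± 10.5 CPM in KPC4 (SD, n = 3; log2 difference 2.07, SE 0.16, adjusted p = 1.71e-07, edgeR). Rrm1 was at 300 ± 8.79 against 122 ± 55.6 CPM (1.30, 0.00241), Cda at 16.0 ± 4.32 against 7.36 ± 1.33 CPM (1.12, 0.00879) and Dck at 46.5 ± 4.68 against 27 ± 12.5 CPM (0.78, 0.0319), each with PSC4 higher in all libraries. The Dck call was lost without any 1 of the 3 PSC4 Control-SU libraries (adjusted p = 0.0678 to 0.093) and without KPC4 Control-PSC-SU replicate 1 (0.49, 0.17) or replicate 3 (0.67, 0.118). That of Cda was lost without KPC4 Control-PSC-SU replicate 1 (0.96, 0.0505).

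Cmpk1 and Nt5c were higher in the tumour line. Cmpk1 was at 48.0 ± 3.26 CPM in PSC4 against 106 ± 10.3 CPM in KPC4 (log2 difference -1.14, SE 0.14, adjusted p = 1.71e-05, edgeR). Nt5c was at 20.7 ± 2.52 against 39.4 ± 2.69 CPM (-0.93, SE 0.23, adjusted p = 0.00510, edgeR). Slc29a1 was at 78.4 ± 11.8 against 101 ± 12.8 CPM and overlapped between the lines (-0.37, adjusted p = 0.104, edgeR). It passed with the block (0.0407) and without KPC4 Control-PSC-SU replicate 1 (-0.53, 0.0456). Slc29a2 at 0.10 and Dctd at 0.35 overlapped between the lines and did not pass.

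Rrm2 gave no difference between the lines with all libraries, at 55.9 ± 12.2 against 57.6 ± 53.0 CPM (-0.04, interval -1.05 to 0.96). KPC4 Control-PSC-SU replicate 2 decided this value, since without it the difference was 1.04 (adjusted p = 0.0438, edgeR). Of the related lists, 11 of 12 S phase genes and 8 of 9 polymerase subunits were called higher in PSC4 and none lower. Over all 13632 genes tested 3037 were called higher in PSC4 and 2805 lower. Of 6 efflux pumps 1 was called higher in PSC4 and 5 were called higher in KPC4, led by Abcb1a (-5.35) and Abcg2 (-3.44). The nucleotidase Nt5e (-4.14) and Upp1 (-4.19) were also higher in KPC4, all with adjusted p under 0.05 in edgeR. The nucleoside phosphorylase Pnp (1.61) and the mitochondrial kinase Cmpk2 (4.69) were higher in PSC4.

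Patterns across the 12 libraries were compared by the Pearson r of log2 CPM centred on the mean of each line, among 11873 genes. The libraries share lines and treatments, so these values only describe and carry no test. Rrm2 and Dck were among each other's 3 closest genes (r = 0.988), with Got1, a transaminase of the cytosol, at 0.993 and the ubiquitin ligase gene Siah1b at 0.992 for Rrm2. Closest to Rrm1 were the replication genes Dtl and Mcm10 and the zinc finger gene Zfp367, all at 0.992. Rrm1 with Rrm2 gave 0.931 and with Dck 0.924, while Cda with these 3 genes gave values from -0.718 to -0.699. Slc29a1 had a weaker nearest gene, H2afz at 0.916, and Samhd1 had Vezf1 at 0.918.

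The authors' deposited table put 8 of the 10 genes under an adjusted p of 0.05 in PSC4, 5 of them higher, and 1 of 10, Rrm1, in KPC4. In the authors' deposited table Rrm2 had a log2 fold change of 2.87 in PSC4 and 1.42 in KPC4, the latter with an adjusted p of 0.38. Slc29a2, Cmpk1 and Samhd1 did not pass here in the edgeR fit of PSC4 alone without the block, at log2 differences of 0.47, -0.32 and -0.37. For these the authors' deposited table gave 0.67, -0.71 and -0.36 in PSC4 with adjusted p of 0.0103, 0.0455 and 0.0251. Nt5c overlaps Armc7 and Slc29a1 overlaps the antisense gene Gm17080 on the other strand in the annotation used here. Whether the counting used strand is not given in the sources used here, so reads of these pairs cannot be told apart.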

How the data were processed

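The authors deposited whole-number counts per gene for each line (15309 genes in KPC4, none with a total under 11, and 16386 in PSC4), which may be rounded estimates, and tables of log2 fold changes with p-values. Per the submitters' processing notes the tools were FastQC, Trim Galore 0.6.10, cutadapt 5.2, Salmon, R 4.5.1 and DESeq2 with GRCm39, and their settings are not given in the sources used here. Symbols came from a gene table and matched 99.7% of identifiers in each line, and promoters came from RefSeq (GRCm38.p6). Each comparison was fitted over all genes in edgeR 4.0.16 (R 4.3.3) with TMM totals, its filter on low counts, the robust quasi-likelihood test and a Benjamini-Hochberg adjusted p under 0.05. The difference and the line comparison came from 1 fit of 12 libraries. Intervals are the log2 value ± 1.96 standard errors (about 95%). DESeq2 1.42.0, other scalings and filters, a replicate block and leaving out libraries were alternatives, and the code was tested on simulated data. Same-numbered KPC4 libraries deviated together (r of 0.351, 0.436 and 0.211), so their numbers were taken as pairs from the values, not from the labels. In the fits of 12 libraries the block covered both lines.

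The genes, the related lists and the tests were chosen with earlier results of these data known. Named were all 10 genes, and from each list and comparison up to 3 called genes with the smallest p, or 2 where none was called. Rrm2b, Tk1, Nt5e and Slc28a3 were added in any case, as were the 3 genes most like Slc29a1, Dck, Rrm1, Rrm2 and Samhd1 among those with a mean of at least 50 counts (prior count 2). Other genes named from the lists were chosen after their values were seen. A gene of the lists that this rule names is not reported here.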

Additional observations from a re-analysis of the deposited data

Results flagged for a closer look

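Dctd and Samhd1 met the test of a difference between the lines. For Dctd the response in PSC4 exceeded that in KPC4 by 1.23 on the log2 scale (SE 0.30, adjusted p = 0.0231 in edgeR's quasi-likelihood test). All 3 Gem-SU libraries of PSC4 lay above all 3 controls, and the KPC4 groups overlapped, with Gem-PSC-SU lower in 3 of 3 same-number pairs. For Samhd1 the difference was -0.73 (SE 0.22, adjusted p = 0.0495, edgeR). All 3 Gem-SU libraries of PSC4 lay below all 3 controls, and the KPC4 groups overlapped, with Gem-PSC-SU higher in 3 of 3 same-number pairs. Both calls depended on single libraries, which are named in the report.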

How the results depend on the processing

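In PSC4, 5 of the 10 genes were called with all libraries, beside 46.3% of all genes, and between 4 and 5 when 1 library was left out. DESeq2 called 6 (beside 43.7%), the replicate block 6 (54.4%) and 1 fit over all 12 libraries 7 (40.1%). Same-numbered PSC4 libraries gave r of 0.428, -0.0548 and 0.102 and were not taken as pairs, and the block there called 7266 genes in place of 6177. In KPC4 0 genes of the 10 were called with any 1 library left out, 3 with the block, 1 in DESeq2, 1 in 1 fit over all 12 libraries and 2 without both libraries numbered 2. Over all genes the KPC4 count was 0 with all libraries, 1171 with the block, 822 in DESeq2, 610 in 1 fit and 244 without both libraries numbered 2. In the difference 0 to 2 were called with 1 library left out, 3 with the block, and 1 each with plain totals, with no filter and without both KPC4 libraries numbered 2. All genes called there rose from 1343 to 2988 with the block and 2145 in DESeq2. Between the lines 5 to 7 were called with 1 library left out and 7 with the block. Of all genes 42.9% were called there with all libraries and 52.1% with the block. Values near 0 changed sign. Nt5c in PSC4 was -0.01 with DESeq2 size factors and in DESeq2, -0.02 with the block, -0.05 in 1 fit and -0.18 to 0.16 with 1 library left out. Slc29a1 in PSC4 was -0.03 in 1 fit and -0.11 to 0.13 with 1 left out. Cmpk1 in KPC4 was -0.02 with plain totals, -0.00 with no filter and -0.06 to 0.09 with 1 left out. Rrm2 between the lines was 0.31 with the block, 1.04 without both libraries numbered 2 and -0.49 to 1.04 with 1 left out. With 1 left out, Rrm1 in the difference ran from -0.65 to 0.09, and between the lines Slc28a3 from -0.80 to 0.09 and Slc29a2 from -0.02 to 0.19. The cause was not tested.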
